A study of Bos taurus with 8 samples.

Results

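The genes described here form the receptor and adaptor chain through which blood cells detect lipopolysaccharide, the outer-membrane lipid of Gram-negative bacteria, together with a few related sensors. The set held 10 genes chosen by name (CD14, TLR4, LY96, LBP, TLR2, TLR7, MYD88, TICAM1, TIRAP and NLRP3), of 26640 genes on the array, and 23 probes carried a transcript accession that belongs to them. Every such probe was taken, and no measured value entered the choice. RNA came from peripheral blood mononuclear cells, the blood fraction of lymphocytes and monocytes, of lame crossbred cows (4 arrays), normal crossbred cows (2 arrays) and normal Tharparkar cows (2 arrays). Tharparkar is an Indian zebu breed, and the labels give no age, treatment, cause of lameness or breeds behind the crossbred cows.

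Per the labels, RNA samples were run as technical duplicates. Read that way, the 8 arrays hold 4 RNA samples: lame R1 (arrays R1_1 and R1_2), lame R2 (arrays R2_1 and R2_2), 1 from normal crossbred and 1 from normal Tharparkar. The titles do not settle this for the normal arrays, and the labels do not say how many cows gave each RNA sample. All p-values below rest on the spread among arrays, technical duplicates included, and are therefore smaller than a test over cows would give. In the comparison of lame crossbred with normal Tharparkar cows, lameness and breed cannot be told apart.

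In mammals, lipopolysaccharide-binding protein (LBP), made mainly by the liver, carries lipopolysaccharide to CD14 on monocytes and granulocytes, and CD14 hands it to the complex of TLR4 and LY96, also called MD-2. TLR4 then signals at the cell surface through TIRAP and MYD88 to NF-kappaB and inflammatory cytokines, and from endosomes through TICAM1, also called TRIF, to interferon genes. TLR2 detects bacterial lipoproteins, TLR7 detects single-stranded RNA inside endosomes, and NLRP3 is the sensor of an inflammasome that matures interleukin-1.

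Each array gave 1 intensity per spot, and a level here is log2 of the processed signal minus that array's 75th percentile over all probes, so 0 is the level of a fairly bright probe. Levels compare arrays for 1 probe and do not compare probes or genes with each other. Of the probes on an array, 52.8% to 61.4% were well above background on 7 arrays and 70.9% on lame R2_2. Lame R2_2 also had the brightest negative controls, whose median raw signal was 107, compared with 53.0 to 65.0 for the other 7. Values of dim probes on lame R2_2 are given separately for that reason. The number of arrays limits the precision of every value, and no spot was saturated.

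On the brightest probe of each gene, lame cows had less CD14 and TLR4 transcript than either normal group and more TLR7 than normal crossbred cows, while LY96 lay in 1 narrow range in all groups. With all probes of a gene averaged, the CD14 and TLR4 calls against normal crossbred cows were lost, at log2 differences of -1.08 (limma adjusted p = 0.194) and -0.81 (limma adjusted p = 0.14). Of the 9 genes that could be tested, 3 were called in lame against normal crossbred cows at an adjusted p under 0.05 in limma: CD14 and TLR4 fell and TLR7 rose. The background was 9.62% of the 15127 genes tested, with 6.33% called lower and 3.29% called higher. Against normal Tharparkar cows 3 were called, all lower (CD14, TLR4 and TLR2), beside a background of 23.3%, of which 10.7% were lower. Between normal crossbred and normal Tharparkar cows limma called 0 of the 9 genes, 1 of the 9 had an unadjusted p under 0.05 (TLR2), and the background was 18.7%, of which 6.89% were lower. The median log2 difference over the 9 genes was 0.03, -0.27 and -0.65 in these 3 comparisons, beside -0.04, -0.01 and 0.01 over all genes. All lame arrays lay above both arrays of the other group for 3 of the 9 genes and below them for 3 in the comparison with normal crossbred cows, where 15.7% of all genes lay above and 23.1% below. The counts were 1 above and 4 below against normal Tharparkar cows (24.9% and 25.1% of all genes), and 0 above and 6 below for normal crossbred against normal Tharparkar arrays (41.6% and 40.3%). Of the 3 genes above in lame against normal crossbred cows, only TLR7 was well above background on all arrays. TIRAP was so on 1 lame, 0 normal crossbred and 2 normal Tharparkar arrays, and NLRP3 on 4, 1 and 0. NLRP3 was also the 1 above against normal Tharparkar cows, and TIRAP was 1 of the 6 below between the normal groups. The order of values not well above background cannot show a difference, so these positions decide nothing. The comparisons share arrays, so their values are set side by side and are not independent.

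**Figure D1:**
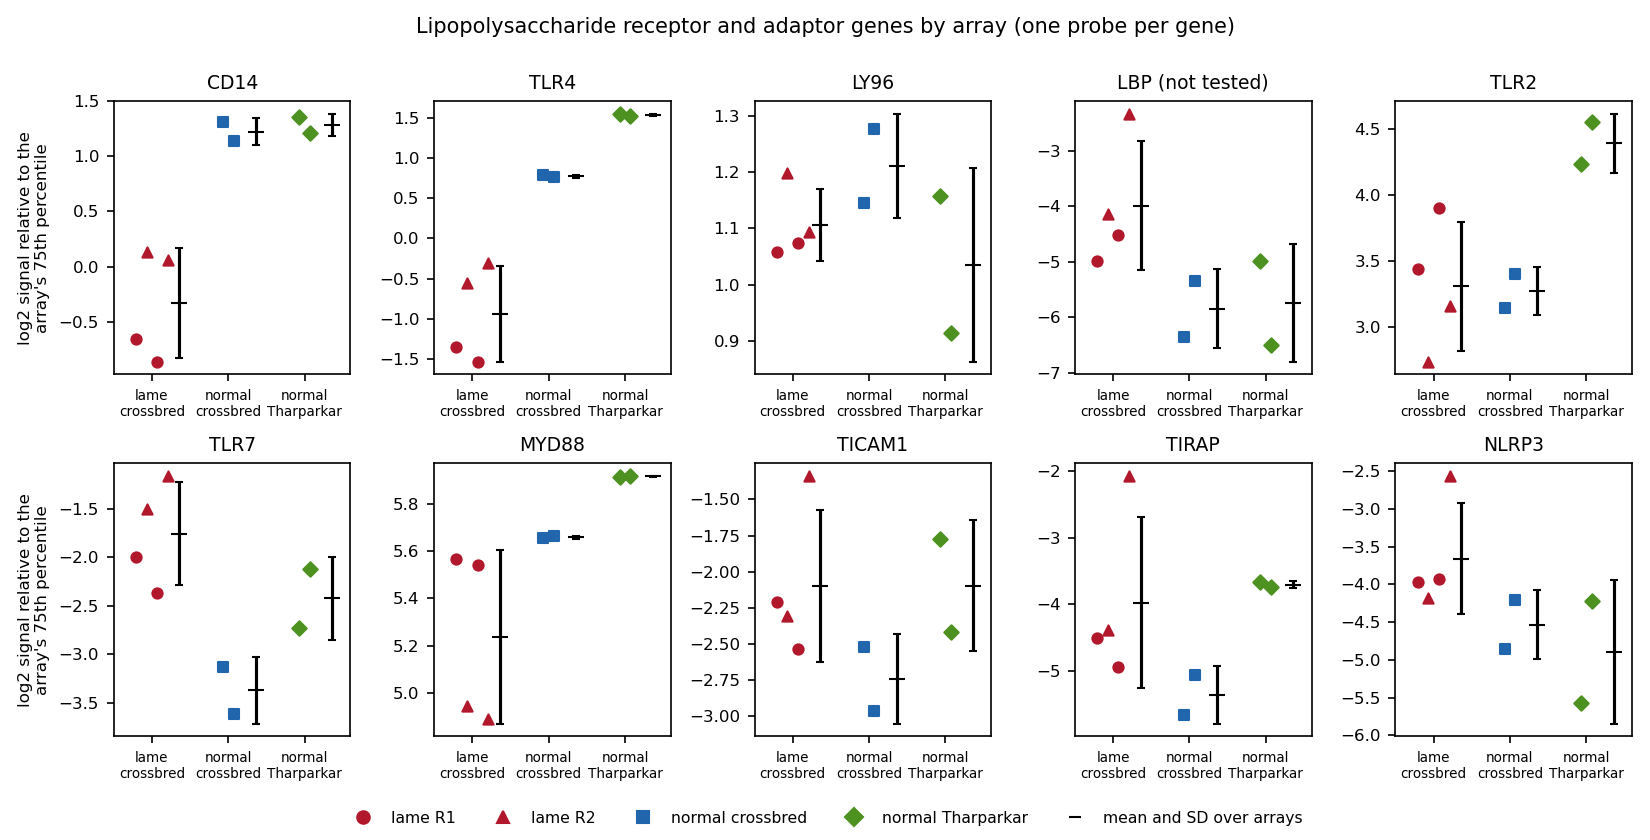
Level of each of the 10 genes on each array, as log2 signal relative to the array's 75th percentile, for lame crossbred, normal crossbred and normal Tharparkar cows. Circles and triangles separate the lame R1 and R2 arrays, black bars are the mean and SD over arrays. The lame arrays of CD14 and TLR4 lie below all normal arrays, whereas those of LY96 overlap them.

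CD14, the co-receptor that hands lipopolysaccharide to TLR4, was at -0.65 and -0.86 on the lame R1 arrays and 0.13 and 0.06 on the lame R2 arrays, against 1.31 and 1.14 in normal crossbred and 1.36 and 1.22 in normal Tharparkar cows. All 4 lame arrays lay below all 4 normal arrays, and the lame R1 pair lay below the lame R2 pair. The group means were -0.33 ± 0.50 in lame (SD, n = 4), 1.23 ± 0.12 in normal crossbred (n = 2) and 1.29 ± 0.10 in normal Tharparkar cows (n = 2). CD14 was therefore 2.94-fold lower in lame than in normal crossbred cows (log2 difference -1.56, SE 0.31, limma adjusted p = 0.0229). It was 3.07-fold lower in lame than in normal Tharparkar cows (log2 difference -1.62, SE 0.31, limma adjusted p = 0.0103). The normal groups differed by -0.06 (SE 0.35, limma adjusted p = 0.925).

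The fall in CD14 had nearly the same size on both slides. Read as duplicates, the slides repeat the same RNA samples. Agreement between slides, here and for the genes below, therefore shows how well arrays repeat and not the spread over cows. On slide 1 and slide 2 the log2 differences were -1.57 and -1.54 against normal crossbred, and -1.62 on each against normal Tharparkar, and with the slide as a block the limma adjusted p was 0.0467 and 0.0218. Against normal crossbred cows the lame R1 arrays were lower by a log2 difference of -1.98 and the lame R2 arrays by -1.13. With duplicates averaged neither call held, at limma adjusted p = 0.521 and 0.25. The call against normal crossbred was also lost without either normal crossbred array (adjusted p = 0.215 and 0.161) or either normal Tharparkar array (0.0559), and that against normal Tharparkar without either normal Tharparkar array (0.0946 and 0.0759). In RNA from a mixture of cells, fewer CD14-bearing cells and less CD14 RNA per cell cannot be told apart.

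TLR4, the signalling receptor itself, was at -1.35 and -1.54 on the lame R1 arrays and -0.56 and -0.31 on the lame R2 arrays, against 0.79 and 0.76 in normal crossbred and 1.55 and 1.53 in normal Tharparkar cows. The 3 groups did not overlap, and lame was lowest. Means were -0.94 ± 0.60 in lame (SD, n = 4), 0.78 ± 0.02 in normal crossbred (n = 2) and 1.54 ± 0.02 in normal Tharparkar cows (n = 2). TLR4 was 5.56-fold lower in lame than in normal Tharparkar cows (log2 difference -2.48, SE 0.35, limma adjusted p = 0.00348). This call held with the slide as a block (limma adjusted p = 0.0103), and the slides gave -2.50 and -2.45. With duplicates averaged the difference is the same -2.48. That fit has 1 value in each normal group and uses 1 spread for all genes, so it cannot measure the spread of TLR4 itself.

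TLR4 was 3.28-fold lower in lame than in normal crossbred cows (log2 difference -1.71, SE 0.35, limma adjusted p = 0.0262). The difference was -1.74 on slide 1 and -1.69 on slide 2, but with the slide as a block the adjusted p was 0.056 and with duplicates averaged 0.347. The call was also lost without either normal crossbred array (adjusted p = 0.212 and 0.188) or either normal Tharparkar array (0.0614). Lame R1 was lower by -2.22 and lame R2 by -1.21. Normal crossbred cows were below normal Tharparkar cows by a log2 difference of -0.76 (SE 0.40), which was not called (limma adjusted p = 0.236).

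LY96, the secreted partner that binds lipopolysaccharide within the TLR4 complex, was not called in any comparison. Its level was 1.06, 1.07, 1.20 and 1.09 on the lame arrays R1_1, R1_2, R2_1 and R2_2, against 1.14 and 1.28 in normal crossbred and 1.16 and 0.91 in normal Tharparkar cows. All groups overlapped. The log2 difference was -0.10 (SE 0.14, limma adjusted p = 0.696) against normal crossbred and 0.07 (SE 0.14, limma adjusted p = 0.746) against normal Tharparkar cows. Its single probe was well above background on all 8 arrays.

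LBP, the plasma carrier of lipopolysaccharide, could not be tested: no group had any of its 5 probes well above background on all arrays. Its brightest probe was well above background on 3 of 4 lame arrays and 0 of 4 normal arrays, and the other 4 probes on 0 arrays. The processed signal of that probe, in the scanner's intensity units, was 8.68, 13.1, 17.8 and 68.9 on lame R1_1, R1_2, R2_1 and R2_2. It was 3.08 and 6.20 in normal crossbred and 6.74 and 2.33 in normal Tharparkar cows. The highest value was on lame R2_2, the array with the brightest negative controls, and its part in this pattern was not tested.

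TLR2, the lipoprotein receptor, was at 3.43 and 3.90 on the lame R1 arrays and 2.73 and 3.16 on the lame R2 arrays, against 3.15 and 3.40 in normal crossbred and 4.23 and 4.55 in normal Tharparkar cows. The lame and normal crossbred arrays overlapped, and both lay below the normal Tharparkar arrays. Lame cows were 2.12-fold below normal Tharparkar cows (log2 difference -1.08, SE 0.31, limma adjusted p = 0.0431; slides -1.15 and -1.02, adjusted p = 0.0463 with the slide as a block). This call was close to the threshold: it was lost in 7 of the 8 fits that left out 1 array, in all but the fit without lame R1_2, at adjusted p = 0.0542 to 0.25, and at 0.737 with duplicates averaged. Normal crossbred cows differed from normal Tharparkar cows by about as much (log2 difference -1.12, SE 0.36), with a limma adjusted p of 0.07. Lame and normal crossbred cows differed by 0.03 (SE 0.31, limma adjusted p = 0.968).

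TLR7, the endosomal receptor for single-stranded RNA, was the single gene of the set called higher. Its level was -1.9998, -2.37, -1.51 and -1.16 on lame R1_1, R1_2, R2_1 and R2_2, against -3.13 and -3.62 in normal crossbred and -2.73 and -2.12 in normal Tharparkar cows. All lame arrays lay above both normal crossbred arrays, and they overlapped the normal Tharparkar arrays. TLR7 was 3.07-fold higher in lame than in normal crossbred cows (log2 difference 1.62, SE 0.36, limma adjusted p = 0.0351; slides 1.38 and 1.86). With the slide as a block the adjusted p was 0.0691, with duplicates averaged 0.449, and after normexp background correction the difference was 0.60 (adjusted p = 0.226). It was also lost in the fits without lame R1_1, lame R2_1 or any 1 of the normal arrays, at adjusted p = 0.0546 to 0.282. Against normal Tharparkar cows the difference was 0.67 (SE 0.36, limma adjusted p = 0.222), and it was -0.20 after normexp correction.

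**Figure D2:**
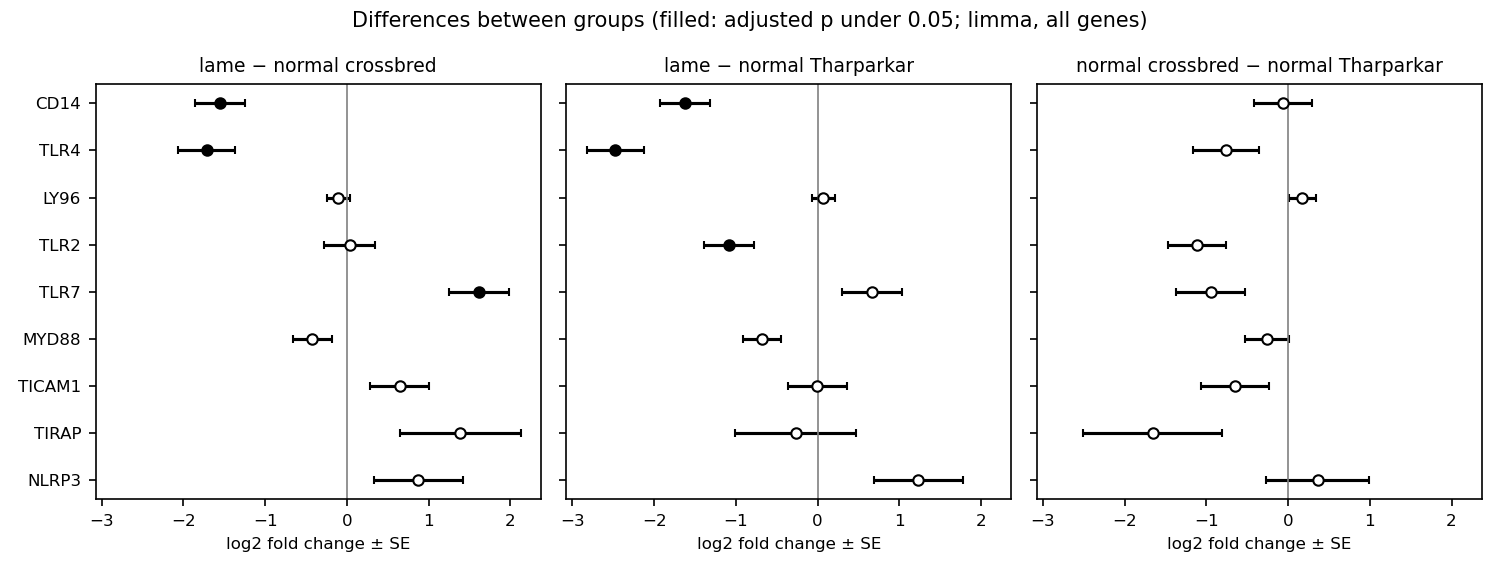
Log2 difference ± SE of the 9 tested genes in each comparison, with filled points for an adjusted p under 0.05 in limma. CD14 and TLR4 lie left of 0 in both comparisons of lame cows, TLR7 lies right of 0 against normal crossbred, and no gene is filled between the normal groups.

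Among the adaptors, none was called on its brightest probe in any comparison. MYD88, which relays signals of most Toll-like receptors, was at 5.57 and 5.54 on the lame R1 arrays and 4.95 and 4.89 on the lame R2 arrays, against 5.65 and 5.66 in normal crossbred and 5.91 and 5.92 in normal Tharparkar cows. All lame arrays lay below all normal arrays, with the lame R2 pair lowest. The log2 difference was -0.42 (SE 0.24, limma adjusted p = 0.314) against normal crossbred and -0.68 (SE 0.24, limma adjusted p = 0.0766) against normal Tharparkar cows. Duplicate arrays of MYD88 differed by at most 0.055, whereas lame R1 and lame R2 differed by 0.63.

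TICAM1, the adaptor of the endosomal branch, was at -2.21, -2.54, -2.31 and -1.34 on lame R1_1, R1_2, R2_1 and R2_2, against -2.52 and -2.96 in normal crossbred and -1.77 and -2.42 in normal Tharparkar cows. The lame arrays overlapped each normal group, and both normal crossbred arrays lay below both normal Tharparkar arrays. The log2 difference was 0.65 (SE 0.36, limma adjusted p = 0.315) against normal crossbred and -0.0011 (SE 0.36, limma adjusted p = 0.999) against normal Tharparkar cows. TIRAP, which bridges TLR4 and MYD88, was well above background on 1 of 4 lame arrays (R2_2), 0 of 2 normal crossbred and 2 of 2 normal Tharparkar arrays. It was at least 2.04-fold lower in normal crossbred than in normal Tharparkar cows, taking the normal crossbred level at its detection bound, and the limma adjusted p was 0.22. Its lame values of -4.50, -4.93 and -4.38 on R1_1, R1_2 and R2_1 stood apart from -2.07 on R2_2.

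NLRP3, the inflammasome sensor, was dim throughout. It was well above background on 4 of 4 lame arrays, 1 of 2 normal crossbred arrays and 0 of 2 normal Tharparkar arrays. Its level was -3.97, -3.92, -4.18 and -2.56 on lame R1_1, R1_2, R2_1 and R2_2, against -4.86 and -4.21 in normal crossbred and -5.57 and -4.22 in normal Tharparkar cows. Its mean was at least 1.54-fold higher in lame than in normal Tharparkar cows against the detection bound, with a limma adjusted p of 0.144. That lame mean includes lame R2_2, the array with the brightest negative controls, whose part in this bound was not tested. The difference from normal crossbred was 0.87 (SE 0.55, limma adjusted p = 0.367), and after normexp correction the difference from normal Tharparkar was -0.51.

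Several genes had more than 1 probe, and the values of these probes were set side by side. Of the 18 probes of these genes that passed the filter on dim probes, limma called 4 in lame against normal crossbred cows (2 higher and 2 lower; 7.34% of all 24641 kept probes were called). It called 6 in lame against normal Tharparkar cows, all lower (background 21.6%), and 1, lower, in normal crossbred against normal Tharparkar cows (background 17.7%). Both TLR7 probes were called in lame against normal crossbred cows, the dimmer at 1.23 (SE 0.25, limma adjusted p = 0.0308).

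For TLR4 and CD14 the brightest probe gave the largest difference between lame and normal crossbred cows. The other 2 TLR4 probes differed between lame and normal crossbred cows by -0.16 (SE 0.25, limma adjusted p = 0.739) and -0.57 (SE 0.38, limma adjusted p = 0.406). On the first of them lame arrays were at -1.08, -1.11, -0.65 and -0.35 (R1_1, R1_2, R2_1, R2_2), against -0.74 and -0.54 in normal crossbred and 0.10 and 0.28 in normal Tharparkar cows. That probe was called lower in lame than in normal Tharparkar cows (-0.99, SE 0.25, limma adjusted p = 0.029), and the other TLR4 probe was not (-0.92, adjusted p = 0.126). The second CD14 probe gave -0.61 (SE 0.65, limma adjusted p = 0.615) against normal crossbred and -1.70 (SE 0.65, limma adjusted p = 0.104) against normal Tharparkar cows.

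MYD88 was called on its dimmer probes and not on the brightest. In lame against normal Tharparkar cows they gave -1.45 (SE 0.31, limma adjusted p = 0.0165) and -0.93 (SE 0.27, limma adjusted p = 0.0495), and both were called. One of the 4 TLR2 probes was called lower in normal crossbred than in normal Tharparkar cows (-1.64, SE 0.42, limma adjusted p = 0.0378). Another TLR2 probe differed by -0.18 (limma adjusted p = 0.544) in lame against normal Tharparkar cows. Which transcripts each probe detects was not tested here.

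**Figure D3:**
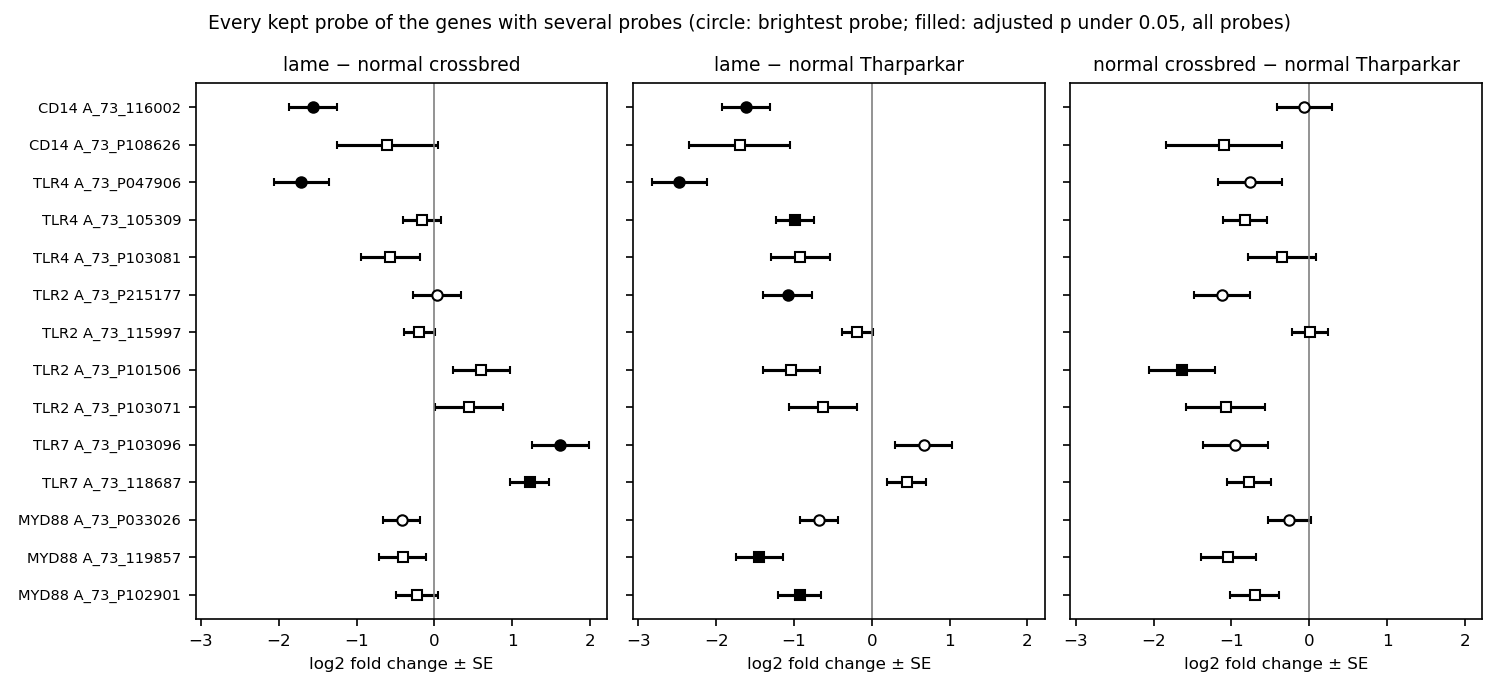
Log2 difference ± SE of every kept probe of CD14, TLR4, TLR2, TLR7 and MYD88 in each comparison. Circles mark the brightest probe of a gene, squares its other probes, and filled symbols an adjusted p under 0.05 over all probes. The brightest TLR4 probe, at -1.71, lies well left of the other 2 TLR4 probes in lame against normal crossbred cows.

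The 2 lame RNA samples differed from each other in several of these genes. Lame R1 minus lame R2 was -0.86 for CD14, -1.01 for TLR4, 0.72 for TLR2, -0.85 for TLR7 and 0.63 for MYD88, and -0.08 for LY96. Duplicate arrays of an RNA sample differed by at most 0.247 for CD14, TLR4, LY96 and MYD88, by up to 0.465 for TLR2 and by up to 0.602 for TLR7. NLRP3 and TIRAP differed by 1.62 and 2.31 between the lame R2 duplicates alone. On the brightest probes of CD14 and TLR4 the distance between the lame RNA samples was larger than the distance between duplicates. It was smaller than the distance of either sample from the normal groups. Lame R2 did not lie that far below normal crossbred cows on their other probes. On the second CD14 probe lame R1 and lame R2 were at -3.68 and -1.79, with normal crossbred at -2.13. On the other TLR4 probes lame R2 was at -0.50 and -1.60, with normal crossbred at -0.64 and -1.54.

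Of the other genes of the pathway, 95 were listed in 8 lists by role and 72 were tested. In lame against normal crossbred cows 3 rose and 9 fell (median log2 difference -0.05), and in lame against normal Tharparkar cows 5 rose and 19 fell (median -0.17). In normal crossbred against normal Tharparkar cows 1 rose and 6 fell (median -0.11). Over all genes limma called 3.29%, 12.6% and 11.8% higher and 6.33%, 10.7% and 6.89% lower in these 3 comparisons. Every list count below stands beside these shares. With duplicates averaged limma called 7, 6 and 0 of the 72, the last with 2 at an unadjusted p under 0.05.

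One list held genes that lipopolysaccharide is known to induce through these receptors in mammals. Of 13 tested of 17 listed, 6 fell and 0 rose in lame against normal crossbred cows (median log2 difference -2.004). Against normal Tharparkar cows 10 fell and 1 rose (median -1.92), and between normal crossbred and normal Tharparkar cows 2 fell and 1 rose (median -0.57). The list was drawn up with earlier results of these data known, so its direction is a description. IL1B, the pro-inflammatory cytokine that the NLRP3 inflammasome matures, was at -1.06, -1.17, -0.32 and -0.41 on lame R1_1, R1_2, R2_1 and R2_2, against 2.77 and 2.72 in normal crossbred and 3.89 and 3.77 in normal Tharparkar cows. It was lower in lame cows by a log2 difference of -3.49 (SE 0.27, limma adjusted p = 0.000725) against normal crossbred and -4.57 (SE 0.27, limma adjusted p = 0.000126) against normal Tharparkar.

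IL1A, its sister cytokine, differed by -4.03 (limma adjusted p = 0.0036) against normal crossbred and -4.60 (limma adjusted p = 0.00103) against normal Tharparkar cows. CXCL2, a neutrophil-attracting chemokine, differed by -2.35 (limma adjusted p = 0.00051) and -4.61 (limma adjusted p = 1.69e-05). TNF, an early inflammatory cytokine, was at 1.87, 1.72, 2.08 and 1.99 on lame R1_1, R1_2, R2_1 and R2_2, against 2.36 and 2.20 in normal crossbred and 1.098 and 0.94 in normal Tharparkar cows. It was higher in normal crossbred than in normal Tharparkar cows (1.26, SE 0.18, limma adjusted p = 0.00429). It was also the 1 gene of the list that rose in lame against normal Tharparkar cows (0.90, SE 0.15, limma adjusted p = 0.00736), where it was singled out after its value was seen. CCL3 was lower in normal crossbred than in normal Tharparkar cows, as was CXCL2, by -0.95 (limma adjusted p = 0.0118) and -2.26 (limma adjusted p = 0.000578).

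**Figure D4:**
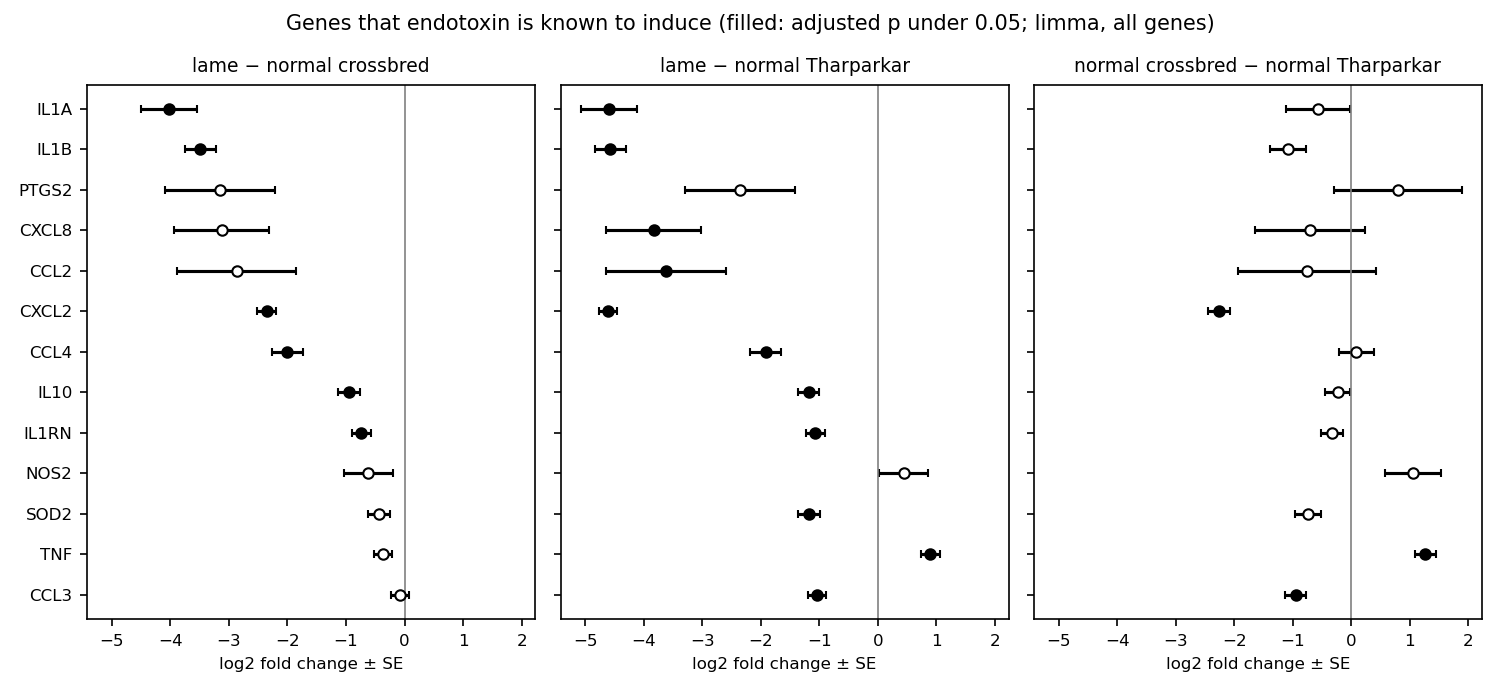
Log2 difference ± SE of the tested genes known to be induced by lipopolysaccharide, in each comparison, with filled points for an adjusted p under 0.05 in limma. IL1A, IL1B and CXCL2 lie between -2.35 and -4.61 in both comparisons of lame cows, and TNF lies right of 0 against normal Tharparkar.

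Fewer transcription factors downstream of the receptors were called. Of 9 tested of 12 listed, 2 fell and 0 rose in lame against normal crossbred cows: NFKBIA, the inhibitor of NF-kappaB and itself one of its targets (-0.78, limma adjusted p = 0.0329), and RELA, an NF-kappaB subunit (-0.59, limma adjusted p = 0.0382). In lame against normal Tharparkar cows 5 fell and 0 rose, led by CEBPB (-1.51, limma adjusted p = 0.00292), IRF8 (-1.30, limma adjusted p = 0.00248) and RELA (-0.97, limma adjusted p = 0.00335). CEBPB (-1.03, limma adjusted p = 0.0239) and IRF8 (-0.75, limma adjusted p = 0.0363), transcription factors of myeloid cells, were also the 2 that fell in normal crossbred against normal Tharparkar cows, where 0 rose.

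UNC93B1 carries the endosomal Toll-like receptors, TLR7 among them, out of the endoplasmic reticulum, and it was lowest in normal crossbred cows. It was at 0.45, 0.33, 0.81 and 0.61 on lame R1_1, R1_2, R2_1 and R2_2, against -1.18 and -1.18 in normal crossbred and 0.61 and 0.49 in normal Tharparkar cows. It was 3.32-fold higher in lame than in normal crossbred cows (log2 difference 1.73, SE 0.17, limma adjusted p = 0.00155). It was lower in normal crossbred than in normal Tharparkar cows by a log2 difference of -1.73 (SE 0.19, limma adjusted p = 0.00176). Lame and normal Tharparkar cows differed by 0.0041 (SE 0.17, limma adjusted p = 0.989). All 4 listed trafficking genes were tested, and the other 3 were not called in any comparison.

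Of the adaptors and proximal kinases, 19 of 22 were tested. In lame against normal crossbred cows 2 rose and 1 fell. IRAK1, a kinase recruited by MYD88, was not well above background in normal crossbred cows and was at least 4.76-fold higher in lame cows (limma adjusted p = 0.00418). BTK, a kinase of B cells and myeloid cells, rose by 0.70 (limma adjusted p = 0.0355), and RIPK1, a kinase on the TICAM1 branch, fell by 0.55 (limma adjusted p = 0.0391). In lame against normal Tharparkar cows 2 rose, IRAK1 (1.99, limma adjusted p = 0.00781, with 1 of 2 normal Tharparkar arrays well above background) and BTK (0.86, limma adjusted p = 0.00911), and 2 fell, the larger CHUK, an inhibitor-of-NF-kappaB kinase (-0.67, limma adjusted p = 0.0129). Between the normal groups limma called 0 of the 19, and 2 had an unadjusted p under 0.05.

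The remaining receptors and sensors gave few calls. Of 6 tested of 9 other Toll-like receptors and relatives, TLR3, a receptor for double-stranded RNA (0.89, limma adjusted p = 0.0429), and TLR10 (0.84, limma adjusted p = 0.0287) rose in lame against normal Tharparkar cows. None of the 6 was called by limma in the other comparisons, where 0 (lame against normal crossbred) and 2 (between the normal groups) had an unadjusted p under 0.05. Of the genes for handling lipopolysaccharide and its co-receptors, 8 of 9 were tested and 0 were called by limma in any comparison, with 0, 1 and 1 at an unadjusted p under 0.05 in the 3 comparisons. Of 8 tested of 13 inflammasome genes, NLRX1 fell in lame (-1.43, limma adjusted p = 0.025) and in normal crossbred (-1.42, limma adjusted p = 0.0477) against normal Tharparkar cows. Of 5 tested of 9 other cytosolic sensors, MAVS, the mitochondrial adaptor for RNA sensors, fell in lame against normal Tharparkar cows (-0.61, limma adjusted p = 0.0452).

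Markers of the cell types that carry CD14 and TLR4 moved in opposite directions. Levels of a list were summed over its tested genes and are given as log2, so the brightest probes weigh most in a sum. The granulocyte sum was 7.49 to 7.81 on lame arrays, against 8.07 to 8.14 in normal crossbred and 8.21 to 8.26 in normal Tharparkar cows. Its brightest probes in lame cows were those of S100A12 and S100A8, at means of 6.51 and 6.23. Neither was called against normal crossbred cows. Of 19 tested of 24 granulocyte markers, 9 fell and 0 rose in lame against normal crossbred cows, and 11 fell and 0 rose against normal Tharparkar cows. Over all genes 6.33% and 10.7% were called lower. The neutrophil chemokine receptors CXCR1 and CXCR2 fell by 3.82 (limma adjusted p = 0.0113) and 3.33 (limma adjusted p = 0.00195) on the log2 scale against normal crossbred cows. Both were picked as defining markers after their values were seen. S100A8, also a granulocyte marker, differed by -0.29 (limma adjusted p = 0.297). Other granulocyte markers lay higher in lame than in normal crossbred cows and were not called. They were S100A9 (0.20, limma adjusted p = 0.777), CATHL6 (0.71, 0.419), PGLYRP1 (0.13, 0.955) and FCGR3A (0.05, 0.863).

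The monocyte sum was higher in lame cows, at 7.22 to 7.38, against 6.84 to 6.85 in normal crossbred and 6.98 to 7.03 in normal Tharparkar cows. Of 14 tested of 18 monocyte markers, 4 rose and 0 fell in lame against normal crossbred cows, and 4 rose and 0 fell against normal Tharparkar cows. Over all genes 3.29% and 12.6% were called higher. Against normal crossbred cows the 4 were CSF1R, the growth factor receptor of monocytes, and the related genes C1QA, C1QB and C1QC. CSF1R rose by 1.00 (limma adjusted p = 0.025) on the log2 scale, and the C1Q genes by 1.32, 1.55 and 1.38 (limma adjusted p = 0.00148, 0.00148 and 0.0123). Other markers lay lower in lame cows and were not called: CD68 by -0.70 (limma adjusted p = 0.0872), CX3CR1 by -0.52 (limma adjusted p = 0.0581) and CD86 by -0.12 (limma adjusted p = 0.696). Mononuclear cell preparations are meant to leave granulocytes behind, and 12 of the 19 tested granulocyte markers were well above background on all 8 arrays. The part of the granulocyte and monocyte markers in the CD14, TLR4 and cytokine differences was not tested.

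**Figure D5:**
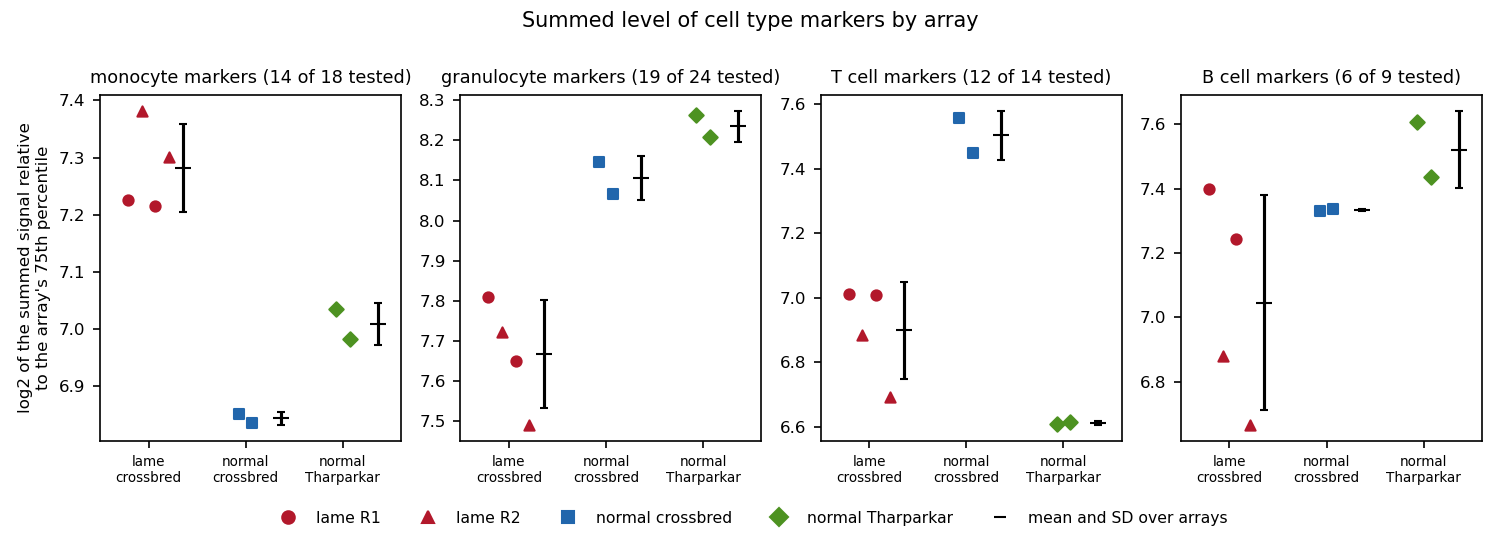
Log2 of the summed signal of monocyte, granulocyte, T cell and B cell markers on each array, relative to the array's 75th percentile, for lame crossbred, normal crossbred and normal Tharparkar cows, with the mean and SD over arrays. The lame arrays lie above the normal ones for monocyte markers and below them for granulocyte markers.

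Of the lymphocyte marker lists, those of T cells and natural killer cells differed between the normal groups as well. The T cell sum was 6.69 to 7.01 on lame arrays, against 7.45 to 7.56 in normal crossbred and 6.61 to 6.62 in normal Tharparkar cows. Of 12 tested T cell markers 0 rose and 3 fell in lame against normal crossbred cows, and 8 rose and 1 fell in normal crossbred against normal Tharparkar cows. Of 10 tested natural killer cell markers 4 fell in lame and 0 rose against normal crossbred cows. Between the normal groups 5 of these markers were called higher in normal crossbred cows and 0 lower. Over all genes 6.33% were called lower in lame against normal crossbred cows, and 11.8% higher in normal crossbred against normal Tharparkar cows. The B cell sum was 6.67 to 7.40 on lame arrays, against 7.33 to 7.34 in normal crossbred and 7.44 to 7.61 in normal Tharparkar cows. None of the 6 tested B cell markers was called in lame against normal crossbred cows or between the normal groups. In each of these 1 had an unadjusted p under 0.05 in limma. TLR7, which plasmacytoid dendritic cells and B cells express, rose in lame against normal crossbred cows. Of 5 tested dendritic cell markers 1 was called there, BATF3 (1.00, limma adjusted p = 0.00801). TCF4 differed by 0.55 (limma adjusted p = 0.159) and CD1B by -1.23 (limma adjusted p = 0.101). The part of these cell types in the TLR7 difference was not tested.

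The genes whose pattern over the 8 arrays was most like each of 4 members were found by the root mean square difference of centred values, among 12949 or 12950 genes well above background on all 8 arrays. CD14 was most like CCL8, a monocyte-attracting chemokine, at 0.155 on the log2 scale, where the median over all genes was 0.925. TLR4 was most like FOS, an immediate-early transcription factor, at 0.206, and C5AR2, a receptor for complement C5a, ranked 3 at 0.232, beside a median of 1.19. CD14 and TLR4 differed from each other by 0.37, which ranked TLR4 57 among the genes most like CD14 and CD14 16 among those most like TLR4. MYD88 ranked 1809 for TLR4 and LY96 5212. For TLR2 the 3 closest probes had no gene symbol (0.114 to 0.146), and for NLRP3 the closest gene was CHST12, a chondroitin sulfotransferase, at 0.168. NLRP3 itself was well above background on only 5 of the 8 arrays. Both NLRP3 (-2.56) and CHST12 (-1.54) were highest on lame R2_2, the array with the brightest negative controls. The part of that array in this likeness was not tested. The 8 arrays fall into 3 groups, and genes that share group levels are alike by this measure.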

How the data were processed

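PBMC RNA of 3 groups was hybridised to 8 one-colour Agilent bovine arrays on 2 slides of 4, each slide with all 3 groups. The authors deposited, per the file headers, the scanner intensity of each spot, background-subtracted within the array and not scaled between arrays. The software was Feature Extraction, version 12.0.3.1 per the headers and 11.5.1.1 per the submitters' processing notes. A second table that the authors deposited holds log2 values of unstated scale and centring. Each column followed log2 of the processed signal less the array's 75th percentile and less each probe's median, with a correlation of at least 0.9999955. Column medians were 0.0041, -0.1252, 0.0005 and 0.8805 for lame R1_1, R1_2, R2_1 and R2_2, -0.068 and -0.1176 for normal crossbred and 0.0249 and 0.0946 for normal Tharparkar. A higher value there is a brighter spot, and that table served as an alternative.

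Spots of a probe were averaged, 56 outlier-flagged probes were left out, and a probe was kept when 1 or more groups had it well above background on all their arrays. Of the 43653 probes, 27054 matched 1 RefSeq gene (ARS-UCD2.0, names only) and 16599 kept the file's name. The array annotation is on bosTau6, so no coordinates are given. A gene was represented by its brightest kept probe. Groups were compared by lmFit and eBayes of limma 3.58.1 in R 4.3.3, with 2-sided tests, in 1 fit of 3 group means with 5 residual and 2.34 prior degrees of freedom, with Benjamini-Hochberg adjustment over 15127 genes or, per probe, 24641 probes. The fit was tested on simulated data. A bound sets a group not well above background at the lowest detected signal of each array. The scanner files used here held no mean signal, so normexp used the median signal (offset 50).

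The genes, lists and tests were chosen with earlier results of these data known. All 10 genes are named, and from each list at most the 3 largest called changes per comparison; TNF in lame against normal Tharparkar cows and the marker genes were named after their values were seen. The alternatives were normexp, quantile scaling, the authors' table, other probe rules and filters, averaged duplicates, 1 lame RNA sample, the slide block and each array left out.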

Additional observations from a re-analysis of the deposited data

Results flagged for a closer look

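NLRP3, the inflammasome sensor, stood apart on 1 lame array. Its level was -2.56 on lame R2_2 and -3.97, -3.92 and -4.18 on lame R1_1, R1_2 and R2_1, on the log2 scale relative to the array's 75th percentile. The gap of R2_2 to the nearest lame array was 0.845 of the group's whole range, above Dixon's critical value for 4 arrays. Chance flags about 1 in 20 groups of independent values, and 10 genes were checked. Read as 2 RNA samples run as duplicates, the 4 lame arrays are not independent, so that rate does not strictly apply to them. Lame R2_2 also had the brightest negative controls (107 against 53.0 to 65.0 on the other arrays), and their part in this value was not tested.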

How the results depend on the processing

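Over 480 alternative values of 27 gene-by-comparison results, 398 kept their direction and side of the threshold, 39 lost the call, 23 gained one and 20 changed sign, all in differences that were not called. Shares in brackets are those of all genes called in the same fit. In lame against normal crossbred cows the 3 genes called of 9 (9.62%) became 1 with a gene's probes averaged (9.53%), 0 with no filter on dim probes (1.34%; 3 at an unadjusted p under 0.05), 0 with duplicates averaged (1.1%; 4 unadjusted), 1 with the slide as the replicate block (6.62%), and 0 to 3 with an array left out. Limma called 0 without either array of either normal group. Against normal Tharparkar the 3 (23.3%) became 1 with duplicates averaged (3.52%), 5 with lame R1 alone (55.4%), 5 with lame R2 alone (58.1%) and 1 to 3 with an array left out. Between the normal groups the 0 (18.7%) became 2 with probes averaged (22.2%), 5 with lame R1 alone (57.8%), 4 with lame R2 alone (47.3%) and 0 to 1 with an array left out. The counts with 1 lame RNA sample lie near the share of all genes and are no result about these genes. Per probe the 4 calls against normal crossbred became 2 with normexp, 0 with duplicates averaged (4 unadjusted), 1 with the replicate block and 0 to 4 with an array left out. The 6 against normal Tharparkar became 1 with duplicates averaged and 0 to 7 with an array left out. The 1 between the normal groups became 2 with quantile scaling, 0 with duplicates averaged (2 unadjusted), 0 with the replicate block (5 unadjusted) and 0 to 5 with an array left out.

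Of the genes that lipopolysaccharide induces, the 6, 11 and 3 called became 6, 6 and 0 (1 unadjusted) with duplicates averaged, 5, 10 and 3 with the replicate block, and 9, 12 and 5 without lame R2_2. Of all 72 pathway genes the 12, 24 and 7 became 7, 6 and 0 (2 unadjusted), 8, 20 and 6, and 15, 25 and 9 (these alternatives were chosen after seeing the data). Fewer samples are part of the averaged fit, which has 4 observations, 1 in each normal group, and 1 residual degree of freedom. Its prior degrees of freedom were infinite, so 1 spread served all genes and calls in it follow the size of the difference. The cause of the other changes was not tested. After normexp, differences between lame and normal crossbred cows changed sign for TLR2 (-0.0078), between lame and normal Tharparkar for TLR7 (-0.20) and NLRP3 (-0.51), and between the normal groups for CD14 (0.11) and NLRP3 (-0.64). With lame R2 alone they changed for TLR2 against normal crossbred (-0.33) and for TICAM1 (0.27) and TIRAP (0.48) against normal Tharparkar. With an array left out, TLR2 against normal crossbred ran from -0.16 to 0.22, and against normal Tharparkar LY96 from -0.0514 to 0.19, TICAM1 from -0.32 to 0.32 and TIRAP from -0.90 to 0.0516. Between the normal groups CD14 ran from -0.15 to 0.0248 and NLRP3 from -0.32 to 1.04.

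Normexp moved the median of all genes to -0.16 in lame against normal Tharparkar cows and to -0.10 between the normal groups. The share of called genes that were higher became 21.7% with normexp against 34.2% in lame against normal crossbred, and 36.3% against 54.0% in lame against normal Tharparkar cows. Over all genes, 1455, 3528 and 2831 were called, and 636, 2017 and 1317 after normexp. Slides carry the replicate numbers of the normal arrays, and the slide differences of the 4 RNA samples correlated at 0.033 to 0.343 across genes, with 0.033 between the lame samples, so the numbers were not taken as pairs. LBP, TIRAP and NLRP3 lay near background, which limits them to bounds.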

Other observations

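Lists of platelet and red cell genes, which belong to neither the receptor chain nor its targets, also differed between the groups. The platelet sum was 4.12 to 4.32 on lame arrays, against 3.84 and 3.93 in normal crossbred and 3.31 and 3.21 in normal Tharparkar cows (log2 of the summed signal). Of 5 tested platelet markers, 4 rose and 0 fell in lame against normal Tharparkar cows, among them PF4, a platelet chemokine (1.12, limma adjusted p = 0.00194), and VWF, the von Willebrand factor (2.79, limma adjusted p = 0.000292). The erythroid sum was 3.61 to 4.44 on lame arrays, against 3.098 and 2.89 in normal crossbred and 2.86 and 2.76 in normal Tharparkar cows. Of 5 tested erythroid markers 2 rose in lame against normal Tharparkar cows, HBB, a haemoglobin chain (1.34, limma adjusted p = 0.0203), and ALAS2, the heme synthesis enzyme of red cell precursors (2.21, limma adjusted p = 0.00716). Over all genes 12.6% were called higher in lame against normal Tharparkar cows. The platelet and erythroid genes named here were picked after their values were seen.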
